A study of Mus musculus with 14 samples.

Results

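The genes of the cohesin complex and of its boundary factor Ctcf were read for peaks and islands in mouse embryonic stem cells with and without Smarcb1 knockdown. They were listed by name and comprise Ctcf, Rad21, Smc1a, Smc3, Stag1, Stag2, Nipbl, Wapl, Pds5a and Pds5b. These 10 genes stand among 21938 protein-coding genes and 55413 annotated genes in all. All libraries came from 81K1 cells, an OG2-based line with a conditional Smarcb1 knockdown. An shRNA against Smarcb1, expressed only with doxycycline, sits in the Rosa26 locus of both conditions. Control cells were untreated, and Smarcb1 kd cells received 1 µg doxycycline per ml medium daily and were taken at 72 h. The experiment has 14 samples, 10 immunoprecipitated and 4 background libraries, with 1 library for each antibody and condition. A single derived line was used, untreated cells are the only control, and no line with doxycycline but without the shRNA was analysed here. Doxycycline and loss of Smarcb1 therefore cannot be told apart. Smarcb1 itself was not measured by these lists. Each value below is one of a pair of libraries with no replicate check, and no test between conditions was possible.

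Cohesin is a protein ring that holds DNA. Smc1a, Smc3 and Rad21 (the kleisin that closes the ring) form its core, and Stag1 or Stag2 binds to Rad21. Nipbl loads cohesin and drives the extrusion of chromatin loops, Wapl releases the ring together with Pds5a or Pds5b, and the DNA-binding protein Ctcf halts extrusion at loop boundaries. In embryonic stem cells the complex organises enhancers and promoters and holds sister chromatids together. Smarcb1 is a core subunit of the BAF (SWI/SNF) chromatin remodeller, whose ATPase is Smarca4, and Ezh2 is the enzyme of Polycomb repressive complex 2, which writes H3K27me3. H3K4me3 marks active or poised promoters, and H3K27ac marks active promoters and enhancers.

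Promoter sequences are shown for Ctcf, for both Smc proteins of the ring, for Stag1, whose promoter peak in kd was the strongest among these genes, and for Pds5b, the only one with H3K27me3 at its start. Each is the stretch before the RefSeq transcript start that is free of annotated exons, on GRCm38.p6, written 5′ to 3′ along the gene. Capitals mark the letters GGGCGG (bound by Sp factors), CCAAT (NF-Y), CCGGAA (ETS factors), GATGGC (Yy1) and TGCGCA (Nrf1) on either strand.
Ctcf, boundary factor, chr8:105636288-105636537, + strand: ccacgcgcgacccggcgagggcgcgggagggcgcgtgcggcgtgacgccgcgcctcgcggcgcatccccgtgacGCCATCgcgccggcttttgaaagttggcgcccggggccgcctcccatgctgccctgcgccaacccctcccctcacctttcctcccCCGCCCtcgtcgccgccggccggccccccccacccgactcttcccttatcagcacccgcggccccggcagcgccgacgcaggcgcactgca
Smc1a, ring subunit, chrX:152016296-152016427, + strand: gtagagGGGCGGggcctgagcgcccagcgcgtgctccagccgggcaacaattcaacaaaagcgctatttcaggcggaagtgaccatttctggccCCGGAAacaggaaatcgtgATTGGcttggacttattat
Smc3, ring subunit, chr19:53600146-53600395, + strand: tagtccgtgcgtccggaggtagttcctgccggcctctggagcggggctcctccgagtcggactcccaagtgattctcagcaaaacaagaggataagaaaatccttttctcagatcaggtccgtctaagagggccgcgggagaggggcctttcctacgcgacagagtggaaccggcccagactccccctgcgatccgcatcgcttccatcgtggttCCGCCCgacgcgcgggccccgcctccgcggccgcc
Stag1, ring-bound subunit, chr9:100643198-100643447, + strand: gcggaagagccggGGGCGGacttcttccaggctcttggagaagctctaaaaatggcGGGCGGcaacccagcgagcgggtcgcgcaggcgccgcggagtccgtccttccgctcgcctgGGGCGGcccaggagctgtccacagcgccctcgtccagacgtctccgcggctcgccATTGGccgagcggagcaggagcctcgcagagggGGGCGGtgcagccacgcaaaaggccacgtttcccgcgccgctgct
Pds5b, Wapl partner, chr5:150673577-150673738, + strand: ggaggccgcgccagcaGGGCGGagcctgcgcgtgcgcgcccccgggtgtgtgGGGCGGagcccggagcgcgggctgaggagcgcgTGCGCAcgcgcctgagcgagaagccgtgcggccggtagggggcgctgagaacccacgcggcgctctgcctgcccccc

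These sequences are rich in G, C and CpG. The RefSeq promoter table matched 7 of the 10 genes, and Rad21, Stag2 and Nipbl were not matched. Over the whole windows, which reach past the start, the median GC content of the 7 was 73.7% (range 58.3 to 80.3) against 52.7% over 32851 promoters. The observed-to-expected ratio of CpG had a median of 1.06 (range 0.9 to 1.16) against 0.38. The Smc1a window was the least rich in GC and that of Pds5a the richest. GGGCGG occurred in 7 of the 7 windows and in 35.7% of all promoters, and CCAAT in 4 against 37.4%. CCGGAA occurred in 2 windows (14.9% of all), GATGGC in 2 (14.1%) and TGCGCA in 1 (7.8%). No other motif was searched in these windows, and a match of letters says nothing on binding.

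The lists held 79014 Smarca4 peaks in control and 72339 after Smarcb1 kd, 6708 and 5364 Ezh2 peaks, 26130 and 33506 H3K4me3 islands, 39091 and 51100 H3K27ac islands, and 22909 and 18320 H3K27me3 islands. Read depth is unknown, because the lists carry no counts. Peaks are described by the authors' score and islands by a strength, the -log10 of the authors' p-value. Neither was scaled between libraries, so each is also given as a percentile, the share of regions in its own list that were weaker, with ties counted at their middle, and a number in parentheses after a score or strength is this percentile. Islands with a p-value listed as 0 are tied, which places them at percentile 96.2 in the control H3K4me3 list and 93.1 in the kd list. The H3K27ac lists were largely repeat-masked (79.05% of islands in control and 74.15% in kd with at least 50% masked bases). The masked share of Ezh2 peaks was 45.95% in control and 3.24% in kd, and that of Smarca4 peaks 9.52% and 19.82%. Counts without regions masked to this extent are given below, but the part of masking in percentiles and in differences between conditions was not tested. The embryonic stem cell label was checked on 7 marker genes, of which 6 had H3K4me3 and H3K27ac at the start in both conditions (all but Esrrb). Of 7 markers of fibroblasts and differentiated cells, 0 had H3K27ac there in either condition (16% and 30.9% of coding genes). H3K4me3 was at 3 of these 7 in control and 5 in kd. In such bulk chromatin, more cells with a mark and more mark per cell cannot be told apart.

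Most of these genes carried the marks of active promoters in both conditions. None had an Ezh2 peak at its start, where most coding genes have none either. Within 1 kb of the gene start, a Smarca4 peak was called at 8 genes in control and 9 after Smarcb1 kd, where the share over all protein-coding genes was 62.5% and 63.5%. H3K4me3 islands lay at 9 and 9 of the starts (56.6% and 60.4% of coding genes) and H3K27ac islands at 7 and 9 (16% and 30.9%). Ezh2 was called at 0 and 0 (7.13% and 12.6%), and H3K27me3 at 1 and 0 (34.9% and 29.2%). The missing gene for H3K4me3 was Stag1, whose annotated record begins 45650 bp upstream of its principal start. With the start of the principal transcript, a definition chosen after the annotation had been seen, the counts were 9 and 10 for Smarca4 (63.1% and 64.0%), 10 and 10 for H3K4me3 (57.1% and 61.0%) and 8 and 10 for H3K27ac (15.9% and 31.0%). Promoters with H3K4me3, whether active or poised, are a closer background. Among 12239 coding genes with promoter H3K4me3 in both conditions, 95.1% had Smarca4 in control and 97.5% in kd, 26.0% and 51.0% had H3K27ac, and 37.4% and 32.9% had H3K27me3. Of the 9 cohesin genes in that class, 8 and 9 had Smarca4, near this background, and 7 and 9 had H3K27ac, above it in both conditions.

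Calls found in a single condition were few. For Smarca4, 0 genes had a promoter call in control alone and 1 in kd alone (2.69% and 3.69% of coding genes, 1.03% and 3.46% of those with H3K4me3 in both). For H3K27ac the counts were 0 and 2 (1.83% and 16.8%, and 2.24% and 27.2% of those with H3K4me3). They were 0 and 0 for H3K4me3 (0.779% and 4.59%) and for Ezh2 (0.283% and 5.78%), and 1 and 0 for H3K27me3 (8.15% and 2.39%, and 6.45% and 1.94% of those with H3K4me3). Smarca4, H3K4me3 and H3K27ac were called together at 7 of the 10 starts in control and 9 in kd, where coding genes had all of them at 14% and 28.6%.

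**Figure D1:**
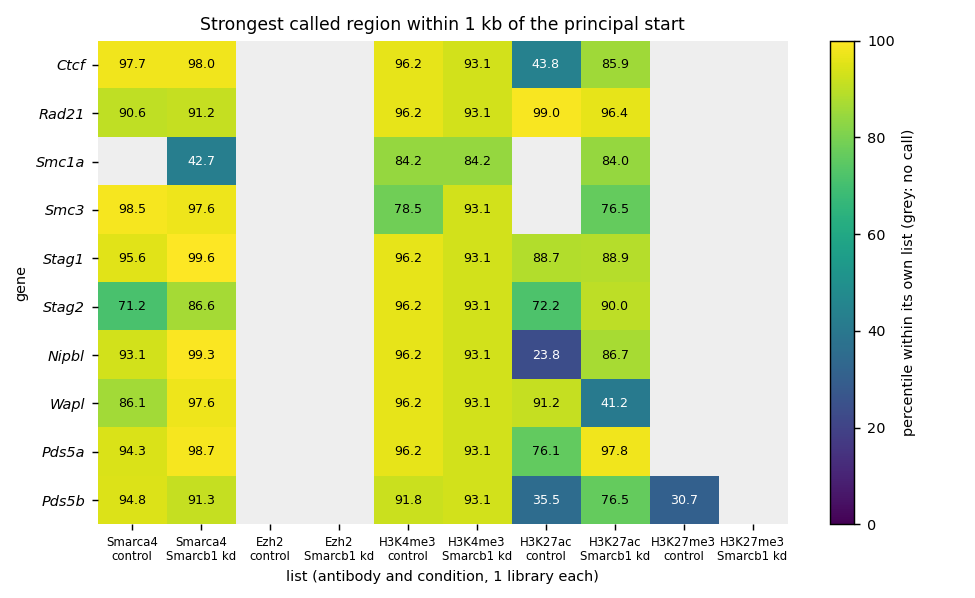
Heat map of the strongest region within 1 kb of the principal start of each gene (rows) in each list (columns, antibody and condition, 1 library each), as percentile in that list, with empty cells for no call. Rows other than Smc1a have a Smarca4 peak and an H3K4me3 island in both conditions, the Ezh2 columns are empty, and Pds5b alone has H3K27me3, at percentile 30.7 in control.

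Smc1a was the gene of the ring without Smarca4 in control. Its record is chrX:152016428-152062694 on the forward strand. The nearest control peak ended at -13968 bp from the start, where negative distances are upstream. After Smarcb1 kd, a peak of score 55 (percentile 42.7) spanned -400 to +384 bp from the start, and a peak of score 13 (percentile 0.1) lay at -869 to -496 bp. H3K27ac was likewise called in kd alone, from -2027 to +572 bp at a strength of 30.3 (percentile 84.0), with the nearest control island ending at -38628 bp. H3K4me3 was present in both conditions, with strengths of 207 and 280.3 and the same percentile of 84.2. The peak and the islands also cover the start of Ribc1, which runs the other way, so the signals of both genes cannot be told apart.

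Smc3, the other Smc subunit, had a high-scoring Smarca4 peak in both conditions. Its record is chr19:53600398-53645833 on the forward strand. The promoter peak had a score of 421 in control (percentile 98.5) and 383 in kd (97.6), over nearly the same bases. H3K27ac reached the promoter in kd alone, as an island of 5400 bp at a strength of 23.5 (percentile 76.5). The control list held a weaker island that ended at -1798 bp, was 1000 bp wide and had a strength of 7.56 (percentile 16.4), and the kd island overlapped it. The Smc3 call in kd alone is therefore an island extended over the start rather than one without a control counterpart. With promoters widened to 2 kb on each side, H3K27ac was called at 8 genes in control.

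Rad21, at chr15:51962240-51991747 on the reverse strand, had the strongest promoter H3K27ac of these genes in control. The island had a strength of 68.8 (percentile 99.0) in control and a strength of 60.8 (percentile 96.4) in kd. Its strongest Smarca4 peak had a score of 209 (90.6) and 242 (91.2). Around this peak the calls differed. A peak of score 79 at -828 to -585 bp was found in control alone, and a peak of score 111 at -470 to +53 bp and one of score 57 at +2853 to +3142 bp in kd alone.

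The Stag subunits, alternative partners of Rad21, both had a stronger top Smarca4 peak at the principal start after Smarcb1 kd. Stag1 lies at chr9:100597798-100959375 on the forward strand. A pair of peaks lay at its principal start in each condition, and they moved in opposite directions. The peak over that start had a score of 222 (percentile 91.6) in control and 613 (99.6) in kd, the highest of all 10 genes. The peak downstream, from +710 bp in control and +700 bp in kd, had scores of 300 (95.6) and 251 (91.9). The strongest peak was thus the downstream one in control and the one over the start in kd. H3K27ac there was nearly alike, with strengths of 32.3 (88.7) and 36.8 (88.9). Stag2, at chrX:42149317-42277185 on the forward strand, had scores of 102 (71.2) and 193 (86.6), and its H3K27ac island had strengths of 21.8 (72.2) and 38.8 (90.0). In kd alone, 3 further Smarca4 peaks of score 74, 49 and 66 followed between +1427 and +2919 bp inside Stag2. They fall within the H3K4me3 island that covered the start in both conditions.

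Nipbl, the loader at chr15:8290617-8444463 on the reverse strand, had one of the larger differences in promoter Smarca4 score. Its strongest peak had a score of 247 (percentile 93.1) in control and 529 (99.3) in kd. A second peak upstream had scores of 229 (92.0) and 408 (98.1). H3K27ac had a strength of 8.82 (23.8) in control and a strength of 33.5 (86.7) in kd. The gene body held no Smarca4 peak in either condition, over a gene of 153.8 kb.

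The release factors did not share a single pattern. Wapl, at chr14:34673928-34747983 on the forward strand, had a promoter Smarca4 score of 171 (86.1) in control and 383 (97.6) in kd, whereas its promoter H3K27ac went the other way, from a strength of 35.1 (91.2) to a strength of 10.8 (41.2). The same promoter windows hold the start of 5830448L01Rik on the other strand. Pds5a, at chr5:65605721-65698273 on the reverse strand, was higher in kd for both, with Smarca4 scores of 269 (94.3) and 448 (98.7) and H3K27ac with strengths of 23.6 (76.1) and 72.6 (97.8). Pds5b, at chr5:150673739-150810690 on the forward strand, had Smarca4 scores of 280 (94.8) and 246 (91.3) and H3K27ac with strengths of 11.2 (35.5) and 23.5 (76.5). Among these 3 genes, Wapl alone had a lower H3K27ac percentile after Smarcb1 kd.

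Pds5b was the one gene with H3K27me3 at its start. The control island ran from -6538 to +3261 bp (9800 bp, a strength of 17.5, percentile 30.7), and the nearest kd island ended at -74939 bp. The island is a weak one, and it was not called at the stricter threshold. Pds5b also had H3K4me3, H3K27ac and Smarca4 at its start in control, so that marks of both kinds were called over the same bases.

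Ctcf, at chr8:105636568-105682922 on the forward strand, had high-scoring promoter peaks of Smarca4 in both conditions. The highest score was 369 in control (percentile 97.7) and 407 in kd (98.0). A pair of control peaks (scores 285 and 369) faced 1 kd peak of 2300 bp that overlapped both. H3K27ac at the Ctcf start had a strength of 12.96 (43.8) in control and a strength of 32.5 (85.9) in kd, with widths of 9400 and 12200 bp. The starts of Agrp and Gm5914 lie in the same regions.

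**Figure D2:**
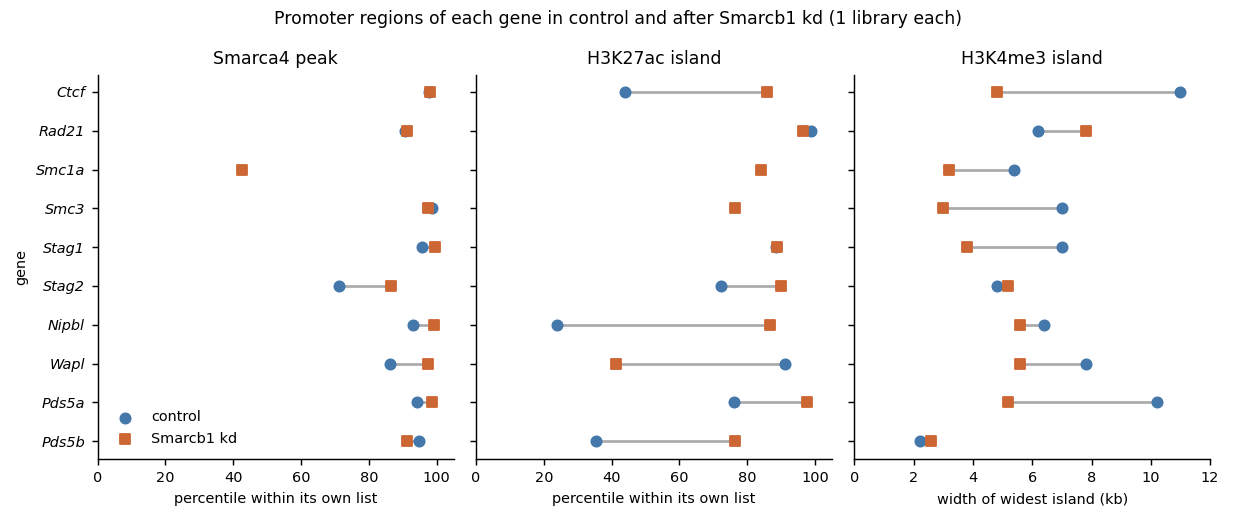
Paired points for each gene at its principal start in control and Smarcb1 kd (1 library each): percentile of the strongest Smarca4 peak, percentile of the strongest H3K27ac island, and width in kb of the widest H3K4me3 island. Stag2, Nipbl, Wapl, Pds5a, Rad21, Ctcf and Stag1 have higher Smarca4 percentiles in kd (at Stag1 from different peaks), and Smc3 and Pds5b lower ones. Wapl and Rad21 have lower H3K27ac percentiles, and the Ctcf island of H3K4me3 is 11 kb in control and 4.8 kb in kd.

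Set side by side, Smarca4 percentiles of these promoters were mostly higher in kd. Of the 8 genes called in both conditions, 6 were higher in kd, against 47.2% of coding genes called in both, and the median difference was 2.45 percentile points against -0.58. Smc3 and Pds5b were lower. With the principal start, 7 of 9 were higher (47.0% of coding genes), with a median of 4.06 against -0.6. The strongest peaks of Stag1 compared in this count are different peaks in control and kd. For H3K27ac, 5 of 7 were higher, against 80.2% of coding genes, with medians of 21.66 and 24.79. The H3K27ac differences of these genes were thus close to those of coding promoters in general. Genes near the top of a list have little room to stand higher, and scores of separate libraries were not brought to one scale.

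H3K4me3 islands at these starts were often narrower after Smarcb1 kd. Their width in control and kd was 11000 and 4800 bp at Ctcf, 10200 and 5200 bp at Pds5a, 7000 and 3000 bp at Smc3, and 7000 and 3800 bp at Stag1. It was 7800 and 5600 bp at Wapl, 6400 and 5600 bp at Nipbl, and 5400 and 3200 bp at Smc1a. Rad21 (6200 and 7800 bp), Stag2 (4800 and 5200 bp) and Pds5b (2200 and 2600 bp) had wider islands in kd. Counted from the gene start, 6 of 9 genes had a narrower island, against 60.8% of coding genes with an island in both conditions. The share was near the background. The median difference was -2200 bp for these genes and -200 bp for coding genes, but their islands were already wider in control, with a median of 6400 bp against 3000 bp. As a percentage of the control width, the kd width had a median of 71.8% for these genes and 89.6% for coding genes.

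**Figure D3:**
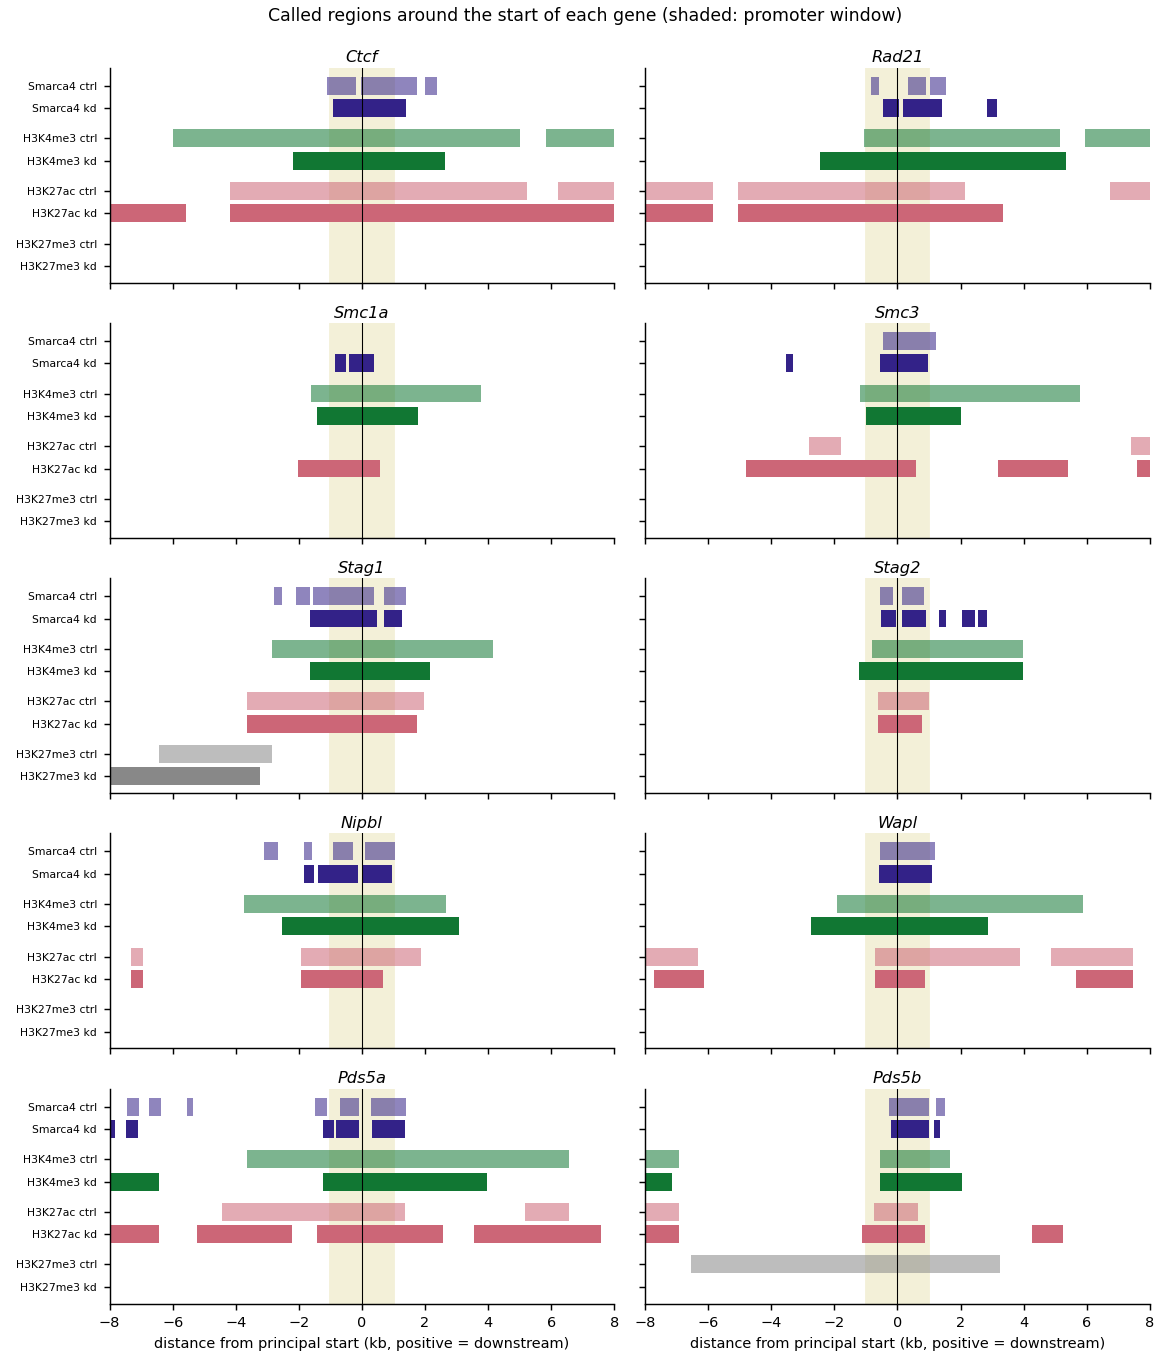
Called regions within 8 kb of the principal start of each gene, as bars to scale, for Smarca4, H3K4me3, H3K27ac and H3K27me3 in control and kd (x axis, distance in kb, downstream positive). The narrower kd islands of H3K4me3 at Ctcf, Pds5a and Smc3 are visible, as are the kd calls of Smarca4 and H3K27ac at Smc1a and the control island of H3K27me3 at Pds5b.

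Inside the gene bodies, Smarca4 was called less densely than in coding genes at large and H3K27ac more densely. The 10 bodies cover 1104.4 kb, with a median gene length of 83.4 kb against 17.4 kb for coding genes, so regions are given per 100 kb. Smarca4 peaks numbered 11 in control and 10 in kd (0.996 and 0.905 per 100 kb, against 3.57 and 2.81 in coding genes). Of these, 2 in each condition lay at the principal promoter of Stag1. The counts were 5 and 6 at the stricter threshold and 3 and 5 with neighbouring regions merged. H3K27ac islands numbered 31 and 32 (2.81 and 2.90 per 100 kb, against 1.04 and 1.5). H3K4me3 islands numbered 8 and 7 (0.724 and 0.634 per 100 kb, against 0.562 and 0.791). H3K27me3 islands numbered 2 and 1 (0.181 and 0.091 per 100 kb, against 0.741 and 0.508). Ezh2 peaks numbered 1 and 0 (0.091 and 0 per 100 kb, against 0.236 and 0.177). Of the H3K27ac islands, 12 of 31 in control and 22 of 32 in kd were repeat-masked over at least 50% of their bases. Without such islands, 19 and 10 remained (1.72 and 0.905 per 100 kb, against 0.316 and 0.487 in coding genes). Of H3K4me3 islands, 6 and 1 were left (0.543 and 0.091 per 100 kb, against 0.316 and 0.444). The kd island and 1 of the control islands cover the principal promoter of Stag1, and without Stag1 5 and 0 were left. The H3K27ac and H3K4me3 densities rest in part on Wapl. Without Wapl, the less masked H3K27ac islands numbered 13 in control (1.26 per 100 kb) and 6 in kd (0.582 per 100 kb), so that the kd value lay near that of coding genes. One of these 6 covers the principal promoter of Stag1. All H3K27ac islands without Wapl gave 2.13 and 2.42 per 100 kb, and all H3K4me3 islands 0.485 and 0.485. Leaving out Wapl was chosen after the data were seen. At promoters, 0 of the H3K27ac islands were repeat-masked to this extent. A gene body held at least 1 region of Smarca4 in 5 and 5 genes (39.7% and 39.1% of coding genes), of H3K4me3 in 5 and 4 (17.2% and 22.0%), of H3K27ac in 7 and 8 (22.1% and 30.7%), of H3K27me3 in 1 and 1 (18.5% and 13.9%), and of Ezh2 in 1 and 0 (7.49% and 5.07%). Length differs between these genes and coding genes, and these shares do not allow for it.

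**Figure D4:**
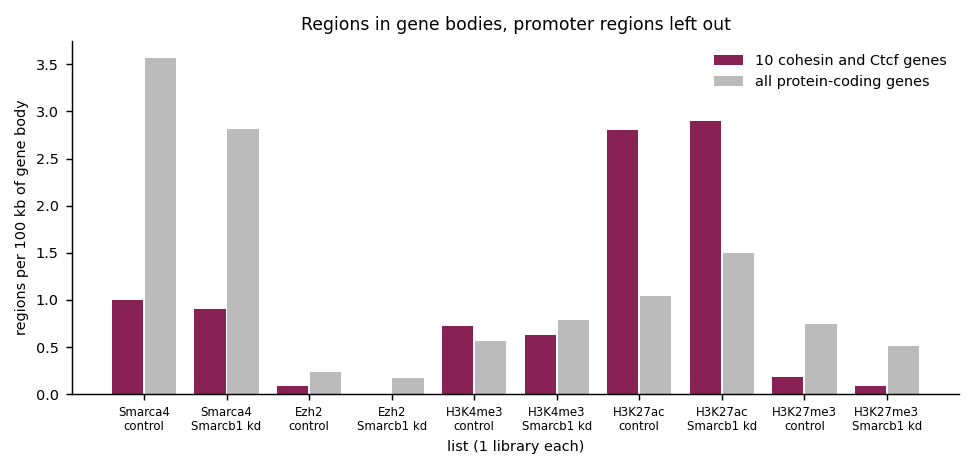
Bars, from 0, of regions per 100 kb of gene body in each list (1 library each) for the 10 genes and for all coding genes, regions at promoters left out. Smarca4 bars of the 10 genes stand at 0.996 and 0.905 below those of coding genes, and H3K27ac bars at 2.81 and 2.90 above them.

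Wapl, though not the longest of these genes, held many body regions. It had 9 H3K27ac islands in control and 7 in kd. A site 34 to 36 kb inside the gene, at the start of the non-coding transcript Wapl-206, stood apart. In control it held Smarca4 peaks of score 13 and 93 (percentiles 0.1 and 67.0), and in kd a single peak of score 431 (98.5) at chr14:34708126-34709521, stronger than the promoter peak of Wapl. H3K27ac there had a strength of 28.4 (84.0) in control and a strength of 89.5 (98.7) in kd, and H3K4me3 was listed at a p-value of 0 in both. All bases of this Smarca4 peak are repeat-masked, and the part of this in its value was not tested. A stretch near +17 to +22 kb went the other way for H3K27ac, though a Smarca4 peak of score 28 (8.8) was called there in kd alone. The H3K27ac island of this stretch had a strength of 73.8 (99.1, 5200 bp) in control and a strength of 6.32 (10.8, 1200 bp) in kd. The H3K4me3 island over it, 12000 bp wide in control (a strength of 107, 67.2), overlapped in kd only an island of 1800 bp (a strength of 11.97, 6.7). An H3K27ac island at +41073 to +46672 bp (a strength of 28.0, 83.5) was called in control alone.

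Pds5b and Stag1 had distal regions of other kinds. Near the 3′ end of Pds5b, an H3K27ac island at chr5:150805201-150809600 (a strength of 34.1, percentile 90.3) was called in control alone, and 2 control-only Smarca4 peaks of score 94 and 48 lay inside it. It holds the start of the transcript Pds5b-204. The sole Ezh2 peak in any of these genes, of score 61 in control, lay 122311 bp into Pds5b and was 63.5% repeat-masked. In Stag1, H3K27me3 lay ahead of the principal start. Control islands ran from +32403 to +36802 and from +39203 to +42802 bp of the gene record, and a kd island from +36803 to +42402 bp, which ended at -3248 bp from the principal start. Further in, a Smarca4 peak of score 28 at +242153 bp and an H3K4me3 island over it were called in kd alone, both over 90% repeat-masked.

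**Figure D5:**
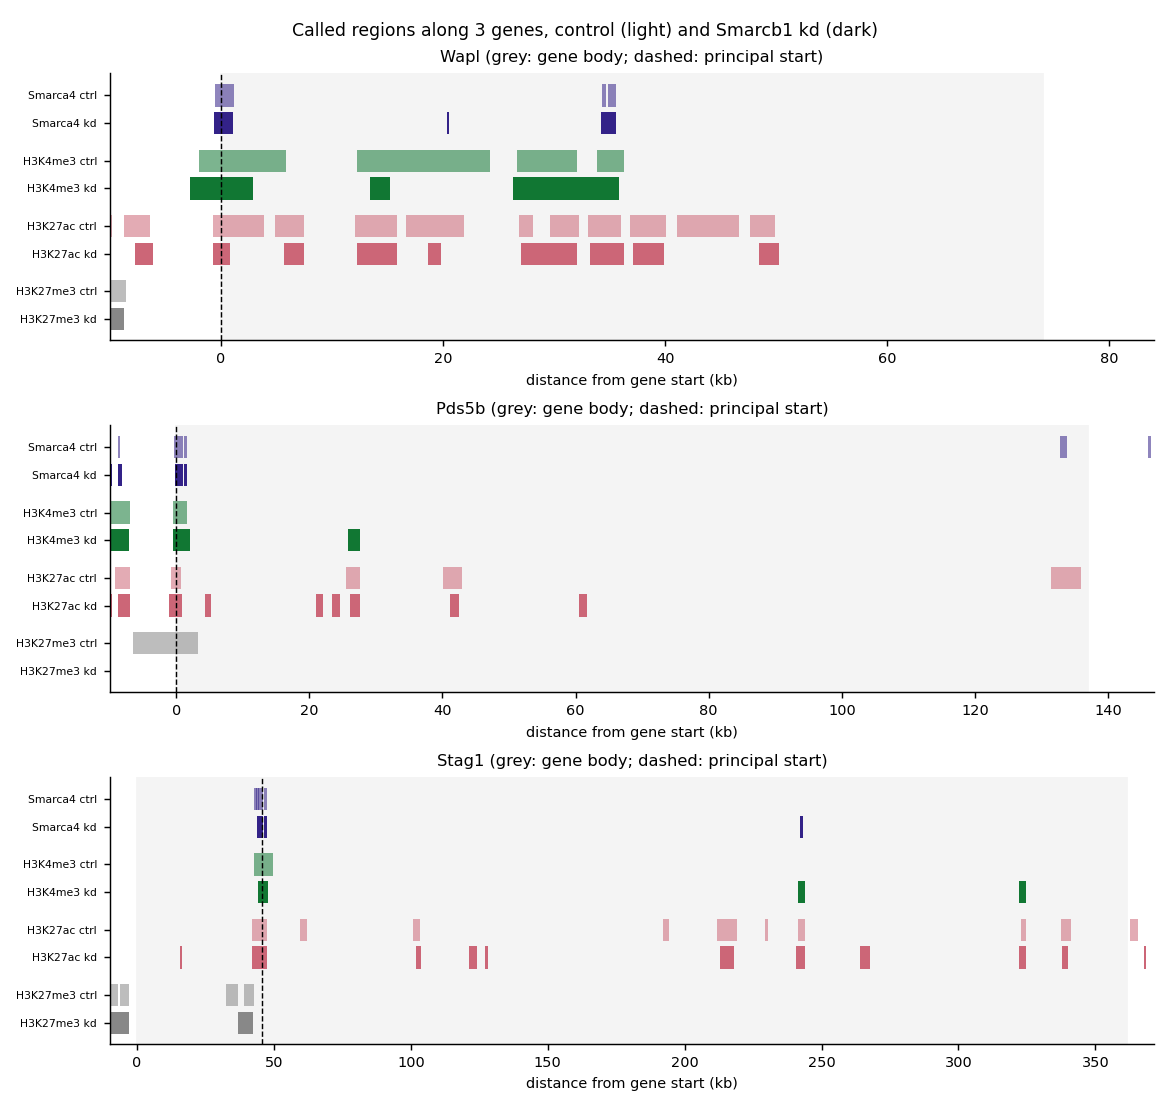
Called regions across Wapl, Stag1 and Pds5b (x axis, distance from the gene start in kb; grey, gene body; dashed line, principal start; rows, antibody and condition, 1 library each). The Wapl site near 34 kb has Smarca4, H3K4me3 and H3K27ac in both conditions, and the 3′ cluster of Pds5b has H3K27ac and Smarca4 in control alone.

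Region by region, most promoter calls of these genes had a counterpart in the other condition and fewer body calls did. The same shares over all coding genes were not computed, so this contrast is not read as particular to these genes. Counting regions of both lists, 25 Smarca4 promoter regions overlapped one in the other condition, 1 was found in control alone and 3 in kd alone. In the bodies, 11 overlapped, 4 were in control alone and 6 in kd alone. For H3K27ac, 15 promoter islands overlapped, 0 were in control alone and 1 in kd alone, against 40, 10 and 13 in the bodies. All 18 H3K4me3 promoter islands overlapped, and 7 of those in the bodies did, with 4 in control alone and 4 in kd alone.

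The CTCF consensus was also searched in the Smarca4 peaks of these genes. It was found in 0 of 25 peaks in control and 0 of 25 in kd within their central 500 bp, where 0.87% of all control peaks and 1.35% of all kd peaks held it. At such shares, 25 peaks would seldom hold a match.

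Genes of the wider machinery were read in the same way, from lists grouped by function. Over 37 related genes, Smarca4 was called at 34 promoters in control and 34 in kd (62.5% and 63.5% of coding genes). H3K4me3 was at 32 and 33 (56.6% and 60.4%), H3K27ac at 14 and 26, and H3K27me3 at 6 and 6 (34.9% and 29.2%). Over all coding genes, promoter H3K27ac likewise went from 16% to 30.9%, and from 26.0% to 51.0% of those with H3K4me3, so the higher kd counts in these lists are read against a general difference. Among 10 genes for loading, acetylation, protection and cleavage of cohesin, H3K27ac was at 4 and 9. Mau2, the partner of Nipbl, Esco1, an acetyltransferase of Smc3, Cdca5 (sororin), Pttg1 and Plk1 had it in kd alone. So did 16.8% of coding genes and 27.2% of those with H3K4me3 in both conditions. Hdac8, which removes the acetyl group from Smc3, had H3K4me3 but no Smarca4 at its promoter. Its body held 4 Smarca4 peaks in control and 0 in kd. Of 8 condensin genes, 4 and 6 had H3K27ac, and of 6 Smc5-Smc6 genes, 1 and 4 had it. Of 8 other architectural proteins, 5 and 7 had it, and Vezf1 alone of the 37 genes had Ezh2 at its promoter, in kd. Smchd1 had an Ezh2 peak in its body in control. The germ cell paralogs Stag3, Smc1b, Rec8, Rad21l and Ctcfl had H3K27ac at 0 and 0 of 5 promoters and Smarca4 at 3 and 4. They had H3K27me3 at 4 and 4, with Rec8 in control alone and Rad21l in kd alone. Of coding genes, 34.9% and 29.2% had H3K27me3 there. The cohesin genes of somatic cells, for comparison, had H3K27me3 at 1 and 0 of 10.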

How the data were processed

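Peak and island lists of 5 antibodies were used, 1 library per antibody and condition, grouped by their labels. The authors aligned reads to mm10 (Trim Galore, Bowtie2 and SAMtools 1.9 are in the submitters' notes) and called each library on its own. The score deposited with Smarca4 and Ezh2 peaks is the MACS2 score of the authors. The p-value deposited with islands is the SICER p-value of the authors, on which their lists had been filtered. The methods and sample titles name input as background, but the antibody labels of the same 4 samples name IgG, so the background is uncertain. By the methods, a company (Active Motif) processed Smarca4 and H3K27me3, so antibody and laboratory cannot be told apart. The Smarca4 and H3K27me3 lists are thus not compared with the others in strength.

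Only chromosomes 1 to 19, X and Y were used, and 0 to 61 lines of a list were dropped. A region belonged to a promoter if at least 1 bp lay within 1 kb of the gene start, and otherwise to the body. Genes were taken from GENCODE M21 on GRCm38. Shared regions overlap by at least 1 bp. A base counts as repeat-masked if the reference has it in lower case. Python 3.11.15, pandas 2.3.3 and numpy 2.4.6 were used, and the overlap and counting steps were tested on simulated data. All 10 genes are named, and related genes come from fixed lists. Members and lists were chosen with earlier results of these data known. The alternatives tried were a stricter threshold, promoters of 2 kb, any coding start, an overlap of 50%, merged regions, lists of equal length and regions under 50% repeat-masked. The principal start was added after the annotation had been seen. Differential calls of the authors were not used here.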

Additional observations from a re-analysis of the deposited data

How the results depend on the processing

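Of 160 values under alternatives, 143 stayed within 1.5 times the value reported and 17 moved. The promoter counts moved in 1 case, H3K27me3 in control, which was 0 instead of 1 at the stricter threshold (score 50 and above for peaks, strength 10 and above for H3K27ac, 20 and above for other islands). The other moved values are counts of regions in the gene bodies. At the stricter threshold Smarca4 had 5 in control and 6 in kd, H3K4me3 4 and 4, H3K27ac 20 and 19, and H3K27me3 1 and 0. With regions within 1 kb merged, Smarca4 had 3 and 5. With any start of a protein-coding transcript, Smarca4 had 5 in kd. Among regions under 50% repeat-masked, H3K27ac had 19 in control and 10 in kd, H3K4me3 1 in kd, Ezh2 0 in control and H3K27me3 1 in control. No value moved with promoters of 2 kb, an overlap of at least 50%, lists of equal length or the principal start. No paired analysis was possible because there was 1 library per antibody and condition, and leaving out a replicate was not possible either. Unknown depth limits what the lists can show, since a region without a call may be a region below the threshold.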
